A study of Mus musculus with 24 samples.

Results

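The response of a hypothyroid liver to T3, the active thyroid hormone, was measured 6 h after injection in wild-type (WT) mice, whose thyroid hormone receptor TRβ is intact. The comparison takes the 3 arrays whose sample titles begin with WT_T3 and the 3 whose titles begin with WT_PBS, 6 of the 24 arrays in the series. The liver RNA came from male mice of the C57BL/6J background, aged 8 to 9 weeks by the labels. For 3 weeks both groups had received 0.02% methimazole, 0.5% perchlorate and 0.3% saccharin in the drinking water and a low iodine diet, a regimen that blocks thyroid hormone synthesis, so the PBS mice are hypothyroid controls. T3 was injected intraperitoneally at 20 µg per 100 g body weight, and the other group is named for PBS, the vehicle. Titles carry a different number for each array, and the arrays were taken as separate mice. For comparison the series holds a TRβ knockout (KO) and a TRβ mutant (GS) whose E125G and G126S changes lie in the region that contacts DNA, both under the same regimen. Another mutant, Y147F, came in a later submission, with mice of 10 to 11 weeks on a C57BL/6JCrl background, 0.05% methimazole and 1% perchlorate. Its T3 dose, labelled as 200 ng per g, is the same as that of WT in other units. Tissue was whole liver, so each value averages over all its cells, and fewer cells of a type cannot be told apart from less RNA per cell.

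Thyroid hormone acts mainly through nuclear receptors, of which TRβ, encoded by Thrb, is the prevailing form in hepatocytes and TRα, encoded by Thra, the lesser one. The receptor sits on DNA with a retinoid X receptor, often at a pair of AGGTCA motifs, and hormone binding exchanges corepressors for coactivators. In the liver T3 is known for raising its own deiodinase Dio1, the synthesis of fatty acids, the disposal of cholesterol as bile acids and mitochondrial respiration.

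Promoters of 4 of the 10 genes that lead the response are shown: Dio1, which rose most, Frmd8 and Slc25a45, neighbours that both rose, and Acot3, whose neighbour also fell. Each sequence is RefSeq's of build GRCm38.p6 and runs from 250 bases before to 50 after the annotated start, 5′ to 3′ on the gene's own strand. Capitals mark the motif AGGTCA or its reverse complement TGACCT. Dio1 lies at chr4:107307119-107307418 on the minus strand, Frmd8 at chr19:5875159-5875458 on the minus strand, Slc25a45 at chr19:5877572-5877871 on the plus strand and Acot3 at chr12:84051894-84052193 on the plus strand.
Dio1: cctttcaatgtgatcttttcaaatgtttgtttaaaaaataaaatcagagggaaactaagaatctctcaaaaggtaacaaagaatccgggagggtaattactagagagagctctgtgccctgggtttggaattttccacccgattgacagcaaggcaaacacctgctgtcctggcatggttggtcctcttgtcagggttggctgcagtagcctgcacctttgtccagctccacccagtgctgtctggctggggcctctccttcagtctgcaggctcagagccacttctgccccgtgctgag
Frmd8: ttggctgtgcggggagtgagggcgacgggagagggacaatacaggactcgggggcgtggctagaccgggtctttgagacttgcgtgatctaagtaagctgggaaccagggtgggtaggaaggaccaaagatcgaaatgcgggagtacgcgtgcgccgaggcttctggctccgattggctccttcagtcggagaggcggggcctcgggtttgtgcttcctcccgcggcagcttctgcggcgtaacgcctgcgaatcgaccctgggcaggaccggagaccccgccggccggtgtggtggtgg
Slc25a45: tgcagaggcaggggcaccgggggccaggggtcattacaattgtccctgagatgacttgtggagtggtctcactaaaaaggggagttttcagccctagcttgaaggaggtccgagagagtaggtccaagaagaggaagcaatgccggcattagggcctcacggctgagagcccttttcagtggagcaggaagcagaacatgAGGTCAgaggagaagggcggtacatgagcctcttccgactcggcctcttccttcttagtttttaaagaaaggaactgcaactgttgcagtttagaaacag
Acot3: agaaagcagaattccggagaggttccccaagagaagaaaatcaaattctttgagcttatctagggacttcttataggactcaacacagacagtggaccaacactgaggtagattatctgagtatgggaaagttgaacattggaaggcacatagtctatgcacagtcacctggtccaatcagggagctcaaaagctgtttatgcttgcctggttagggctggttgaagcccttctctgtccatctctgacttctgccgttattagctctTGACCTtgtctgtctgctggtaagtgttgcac
The windows of Slc25a45 and Acot3 held 1 such motif each, and those of Dio1 and Frmd8 held none. Across the 11329 tested genes with such a window, 15.9% held the motif on either strand. The share was 17.6% among genes that rose and 15.9% among those that fell, and 18.5% and 19.6% among those that moved at least 2-fold. A direct repeat, AGGTCA and AGGTCA in the same direction with any 4 bases between, searched on both strands, occurred in the window of 1 tested gene and of no gene called. These are matches of letters in a short window and say nothing about where a receptor is bound.

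T3 raised 811 genes and lowered 694, which is 10.6% of the 14162 genes tested (5.73% higher, 4.9% lower). A call means an adjusted p under 0.05 in limma, two-sided and adjusted by Benjamini and Hochberg over all genes tested. Most changes were small. Of the 1505 called genes 985 moved less than 1.5-fold and 328 between 1.5 and 2-fold, while 131 rose and 61 fell at least 2-fold, and 18 rose and 7 fell at least 4-fold. T3 and PBS values did not overlap for 1484 of the called genes, and for 29.5% of all genes tested. The median difference over all genes was -0.03 on the log2 scale. The count of falls depended on 1 array more than that of rises: without T3 replicate 2, 435 genes fell and 640 rose. Array medians lay between 5.88 (T3 replicate 2) and 5.99, and on the first principal component of these 6 arrays, with 59.6% of the variance, T3 arrays lay between 15.4 and 19.2 and PBS arrays between -19.9 and -14.8. PBS replicate 1 stood apart on the second component (14%), at 15.9 against -9.75 to 2.48 in the others. It is also the single WT array with a title number over 100000. Without it 1116 genes were called, 643 higher and 473 lower. Genes named below whose call in WT it decides are given with the value without it.

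**Figure D1:**
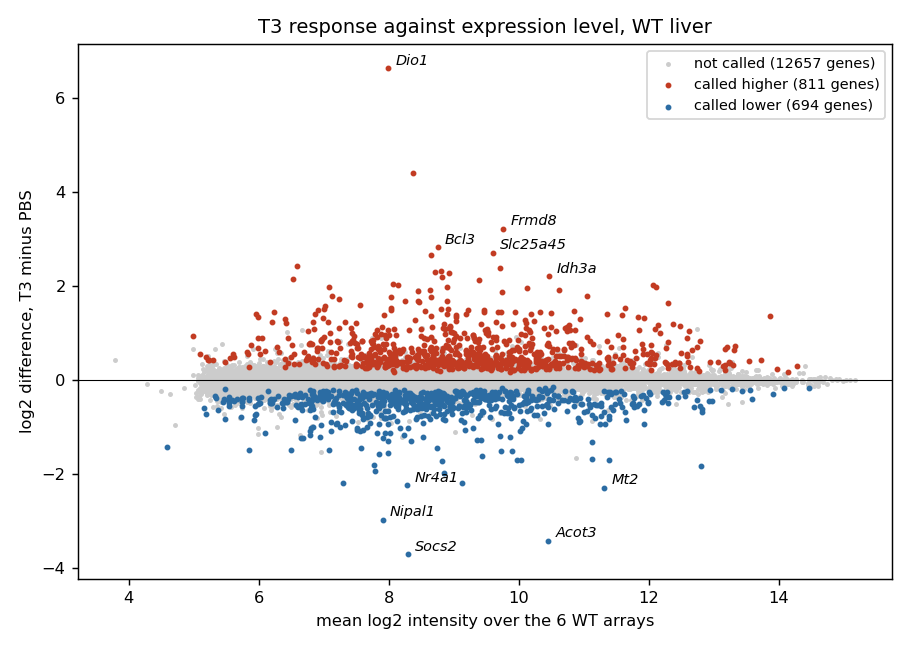
Log2 difference between the 3 T3 and 3 PBS arrays of WT liver (vertical axis) against mean log2 intensity over the 6 arrays (horizontal axis). Each point is 1 of 14162 genes, red for the 811 called higher and blue for the 694 called lower. Dio1, with a difference of 6.63, lies above all others, and Socs2 and Acot3 lie lowest.

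Calls were rarer among dim genes. With the genes divided into 4 equal groups by mean level, 2.37% were called in the dimmest, from 3.8 to 6.44 on the log2 scale, and 9.18%, 16.1% and 14.8% in the groups above it. The median SE of the difference was 0.107 in the dimmest group and 0.0807 in the brightest.

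Thrb, the gene of the receptor itself, had log2 levels of 6.64, 7.01 and 6.75 with PBS and 6.85, 6.38 and 6.76 with T3, and was not called (log2 difference -0.13 ± 0.17). Thra had 8.50, 8.54 and 8.36 with PBS and 8.24, 8.06 and 8.15 with T3. Its groups did not overlap, but the difference of -0.32 ± 0.12 was not called by limma (adjusted p = 0.0983). In a fit of only the 6 WT arrays it was called (adjusted p = 0.0469 by limma). The other 2 probe sets of Thra differed by -0.18 and -0.04.

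The largest rise was that of Dio1, the deiodinase that both activates and clears thyroid hormone. Its log2 levels were 5.06, 4.49 and 4.50 with PBS and 11.33, 10.92 and 11.68 with T3, a difference of 6.63 ± 0.28 (SE, n = 3 per group, limma adjusted p = 2.37e-12). Its PBS values were about as dim as the bottom 25% of probe sets, which ended at 4.69 to 4.72 on these arrays, so this difference, and each difference between genotypes that uses it, compares with a level near background and is not an exact size. Frmd8, a FERM domain protein known from the shedding of cell surface proteins, rose from 7.94, 8.22 and 8.30 to 11.18, 11.49 and 11.42 (3.21 ± 0.18, adjusted p = 1.06e-10 by limma). Its neighbour Slc25a45, a mitochondrial solute carrier, rose from 8.08, 8.19 and 8.49 to 10.84, 11.01 and 11.01 (2.70 ± 0.13). Bcl3, an atypical IκB that binds NF-κB dimers in the nucleus, rose from 6.91, 7.61 and 7.52 to 10.27, 10.09 and 10.13 (2.82 ± 0.17). In all 4 genes every T3 array stood far above every PBS array. Bmf, a proapoptotic BH3-only protein, rose by 2.65 ± 0.25 and Gadd45a, a growth arrest and DNA damage gene, by 2.31 ± 0.26.

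The rest of the 20 largest rises included several metabolic enzymes. Gpd2, the mitochondrial arm of the glycerol phosphate shuttle, went from 8.37, 8.41 and 8.78 to 10.81, 10.93 and 10.96, and Idh3a, which encodes the catalytic part of mitochondrial isocitrate dehydrogenase, from 9.12, 9.38 and 9.59 to 11.59, 11.59 and 11.53. The T3 arrays of Idh3a were nearly equal. The organic anion transporter Slc22a7 (2.30), the steroid hydroxylase Cyp17a1 (2.28), the glycerophosphocholine phosphodiesterase Gpcpd1 (2.02), the coenzyme Q binding protein Coq10a (1.97) and the peroxisomal CoA hydrolase Nudt7 (1.97) also rose. Cyp17a1 lost its call without PBS replicate 2, its lowest PBS array at 7.01 (adjusted p = 0.0556 by limma). The others were the cholesterol transfer protein Gramd1c (2.12), the ubiquitin ligase Trim7 (2.15), the major urinary protein Mup10 (2.41), Ankrd33b (2.04), Sned1 (1.99), Stat5a (2.02) and Ighm (2.19). Mup10 was uneven after T3, at 8.49, 6.61 and 8.31 against 5.14 to 5.53 with PBS, and it belongs to a family of near-identical genes that the probes may not separate. Its PBS values, and those of Trim7 at 5.22, 5.42 and 5.72, lay near the 40th percentile of the PBS arrays, 5.42 to 5.45. Neither difference is therefore an exact size. The Ighm value rests on its brightest probe set: of the 6 others bright enough for testing, 1 differed by 1.87 and 5 by -0.10 to 0.11.

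**Figure D2:**
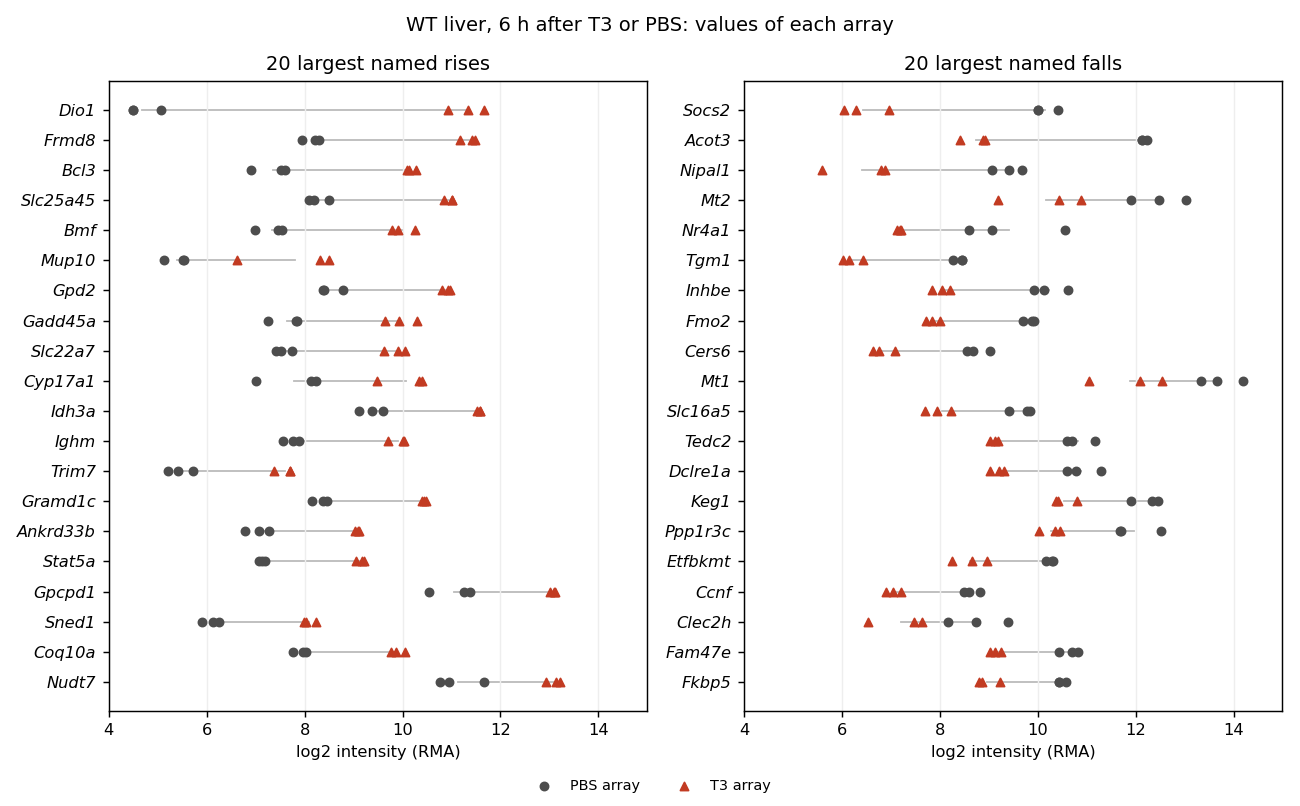
Log2 intensity (horizontal axis) of the 20 largest rises and 20 largest falls among named genes, with each of the 3 PBS arrays as a dark circle and each of the 3 T3 arrays as a red triangle, and a grey line joining the group means. No T3 array overlaps a PBS array for any of these genes, as the rule for naming them required, and the distance is widest for Dio1 and Socs2.

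Among the falls Socs2, a feedback inhibitor of growth hormone signalling, led with levels of 10.02, 10.01 and 10.41 with PBS and 6.96, 6.30 and 6.05 with T3, a log2 difference of -3.71 ± 0.42 (limma adjusted p = 2.35e-06). Acot3, a peroxisomal acyl-CoA thioesterase, fell from 12.14, 12.22 and 12.13 to 8.88, 8.41 and 8.92 (-3.43 ± 0.45), and Nipal1, a magnesium transporter of the NIPA family, from 9.68, 9.42 and 9.08 to 6.87, 5.59 and 6.80 (-2.97 ± 0.38). In both every PBS array lay well above every T3 array. The orphan nuclear receptor Nr4a1 fell to 7.18, 7.12 and 7.21 from 9.08, 10.56 and 8.59, so its T3 arrays were tight and its PBS arrays were not (-2.24 ± 0.43). The metallothionein Mt2 went from 12.47, 13.03 and 11.90 to 9.19, 10.44 and 10.88 (-2.30 ± 0.54) and Mt1 fell by 1.84 ± 0.49. Without T3 replicate 1 neither was called by limma (adjusted p = 0.0543 for Mt2 and 0.106 for Mt1), nor Mt1 without PBS replicate 2 (0.0854).

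The remaining large falls spanned several functions. Tgm1, a transglutaminase (-2.19), Inhbe, the activin E subunit secreted by hepatocytes (-2.19), the monooxygenase Fmo2 (-1.98), the ceramide synthase Cers6 (-1.93) and the monocarboxylate transporter Slc16a5 (-1.73) fell. Ppp1r3c, which directs a phosphatase to glycogen, fell from 12.52, 11.68 and 11.70 to 10.02, 10.45 and 10.36 (-1.69 ± 0.29). Fkbp5, a cochaperone of the glucocorticoid receptor, fell from 10.57, 10.43 and 10.44 to 8.80, 9.22 and 8.86 (-1.51 ± 0.21). Adjacent on chromosome 17, Tedc2, which takes part in centriole assembly, and Ccnf, a cyclin and F-box protein, fell (-1.71 and -1.59). The DNA crosslink repair gene Dclre1a (-1.70), the acyltransferase family member Keg1 (-1.69), the mitochondrial methyltransferase Etfbkmt (-1.63), the lectin Clec2h (-1.55) and Fam47e (-1.52) completed the list. Clec2h lost its call without T3 replicate 3 (adjusted p = 0.0768 by limma) and without PBS replicate 2 (0.0721).

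Genes of 48 lists by pathway or cell type were read next. Of the 974 listed genes tested, 109 rose and 79 fell, so 19.3% were called against 10.6% of all genes. All lists were chosen with earlier results of these data known, so the higher share is not independent evidence. Listed genes were not matched to all genes by expression level. Lists are described by counts without a test of the list. A list called classical hepatic T3 targets had 13 rises and 1 fall among 23 genes tested, and a median log2 difference of 0.66. It was compiled from known targets, some of them named in earlier results of these data, so its direction is not independent evidence. Besides Dio1, Bcl3, Gpd2 and Idh3a, Thrsp, the Spot 14 protein that marks lipogenesis, rose from 13.20, 12.54 and 13.82 to 14.55, 14.55 and 14.56 (1.36 ± 0.25). Cyp7a1, which catalyses the first step from cholesterol to bile acids, went from 9.12, 10.85 and 10.53 to 11.77, 12.10 and 11.96 (1.77 ± 0.43). PBS replicate 1 was its lowest array, and without it Cyp7a1 was not called (adjusted p = 0.0726 by limma), while the list held 8 rises. The fall was that of Igfals, described below. Hr, the hairless corepressor and a T3 target of the brain, differed by -0.11 and was not called.

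Genes that handle the hormone or carry its signal were called about as often as all genes, 13.3% and 13.6% against 10.6%. Of 15 genes of deiodination, transport and binding Slc16a10, a T3 exporter, was called besides Dio1 (0.46 ± 0.14, adjusted p = 0.0369 by limma), and that call was lost without any 1 of 5 of the 6 arrays (adjusted p up to 0.226, without PBS replicate 1). Crym, a T3-binding protein of the cytosol, had a PBS array at 7.87 beside 6.13 and 5.69, and its difference of -1.14 ± 0.71 was not called. Among 22 receptors and coregulators Ppargc1b, a coactivator of mitochondrial genes, rose by 1.07 ± 0.13 and the heterodimer partner Rxrb by 0.37 ± 0.08, and 1 fell, a call lost without PBS replicate 1. Without PBS replicate 2 there were 4 rises.

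Fat synthesis moved upward in part. Of 29 lipogenic genes tested 8 rose, 6 of them under every alternative setting, and 1 fell, a call lost without any 1 of the 6 arrays, with a median log2 difference of 0.21. Agpat2, an enzyme of phosphatidic acid synthesis, rose from 11.57, 11.32 and 11.79 to 12.77, 12.66 and 12.73 (1.16 ± 0.12). Of the list's 4 transcription factors 3 rose: Srebf1 by 0.69 ± 0.13, the carbohydrate response factor Mlxipl by 0.87 ± 0.12 and its partner Mlx by 0.51 ± 0.09. The oxysterol receptor Nr1h3 was not called (-0.20 ± 0.07, adjusted p = 0.0934 by limma), although its T3 values all lay below its PBS values. Dgat2, which makes triglyceride, rose by 0.35 ± 0.07. The synthase Fasn was not called (1.07 ± 0.37, adjusted p = 0.0711 by limma, 0.0194 without PBS replicate 3). Its PBS arrays, at 12.31, 11.35 and 12.94, were spread more widely than the T3 arrays at 13.26, 13.04 and 13.51. Acaca, which makes malonyl-CoA, and the desaturase Scd1 were not called either, with differences of 0.08 and 0.03.

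Among 14 acyl-CoA thioesterases and related CoA hydrolases 5 rose and 3 fell, 57.1% called, with a median of -0.01. Besides Nudt7, Acot11 (1.76 ± 0.21), Them4 (1.03 ± 0.13) and the cytosolic acetyl-CoA hydrolase Acot12 (0.46 ± 0.08) rose, while Acot4 (-1.29 ± 0.23) fell with its neighbour Acot3. Acot3 and Acot4 are close paralogs, and whether a probe set reads both was not tested. The share called among oxidation genes was close to that of all genes, 12.0% against 10.6%: of 25 genes of fatty acid oxidation and ketogenesis 2 rose and 1 fell, the fall being Creb3l3, a fasting transcription factor (-0.51 ± 0.06), and 1 rise or none was left without any 1 array (none without PBS replicate 1). The rate-limiting transferase Cpt1a differed by 0.23 and was not called.

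Some transporters and enzymes of sterol disposal rose and some regulators of bile acid metabolism fell, while 15 of the 25 listed genes were not called. Of 25 genes of bile acid synthesis and export 6 rose and 4 fell. Abcg5 and Abcg8, which together pump sterols into bile, went from 12.05, 11.25 and 11.71 to 12.40, 12.46 and 12.39, and from 10.69, 9.88 and 10.20 to 11.36, 11.36 and 11.24. The HDL receptor Scarb1 (0.60 ± 0.11) and the sterol hydroxylase Cyp27a1 (0.55 ± 0.08) rose. The bile acid receptor Nr1h4 went down from 11.39, 11.31 and 11.32 to 10.71, 10.69 and 10.58 (-0.68 ± 0.09). Nr5a2, an activator of bile acid synthesis genes (-0.60 ± 0.11), the FGF receptor Fgfr4 (-0.56 ± 0.11) and the flippase Atp8b1 (-0.71 ± 0.14) also fell. Nr0b2, which encodes the bile acid induced repressor SHP, and the bile salt pump Abcb11 were not called (0.03 and 0.07). Among 22 genes of cholesterol synthesis and uptake 2 rose and 1 fell, 13.6% called against 10.6% of all genes. The fall was that of the sterol carrier Stard4 (-0.51 ± 0.11), and without PBS replicate 2 no rise was called. Of 24 apolipoprotein and lipoprotein genes 3 rose and 1 fell, 16.7% called. Endothelial lipase Lipg rose by 1.73 ± 0.24 and the editing enzyme Apobec1 by 0.60 ± 0.09, and Apoa5 fell (-0.29 ± 0.05).

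Mitochondrial genes rose in some lists and not in others. Of 30 genes of the citric acid cycle, pyruvate dehydrogenase and the glycerol phosphate shuttle 8 rose, 6 of them under every alternative, and none fell. Pdp2, the phosphatase that switches pyruvate dehydrogenase on, rose from 7.51, 7.48 and 7.54 to 9.56, 9.36 and 9.26 (1.88 ± 0.08, limma adjusted p = 2.37e-12). Pdhb, a subunit of the same enzyme, rose from 11.93, 11.79 and 12.01 to 13.04, 13.07 and 13.07 (1.15 ± 0.10). Citrate synthase Cs rose by 0.77 ± 0.10 and the inhibitory kinase Pdk2 by 0.44 ± 0.08. Within isocitrate dehydrogenase the subunits differed: Idh3b and Idh3g, with differences of 0.03 and -0.04, were not called beside the 2.21 of Idh3a. Of 31 genes of mitochondrial biogenesis, coenzyme Q and carriers 7 rose and none fell, among them Coq10b (1.17 ± 0.17), the transcription factor Tfb2m (0.42 ± 0.09) and the carrier Slc25a47 (0.42 ± 0.08). Nearly all genes of the respiratory chain were not called. Among 36 genes of oxidative phosphorylation 1 rose, Cox10, which catalyses a step towards the heme A of complex IV (0.68 ± 0.11). The other 35 differed by -0.07 to 0.23, and 2 genes rose without PBS replicate 3.

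Genes of growth hormone signalling moved in both directions. Stat5a and Stat5b, the transcription factors that growth hormone activates, both rose, Stat5a from 7.13, 7.08 and 7.18 to 9.21, 9.05 and 9.18 (2.02 ± 0.09) and Stat5b from 8.72, 8.80 and 8.70 to 10.19, 10.13 and 10.24 (1.45 ± 0.08). Igf1, Igfals and Socs2, which growth hormone is known to raise, fell: Igf1, the main circulating growth factor, fell from 13.09, 13.11 and 13.19 to 12.63, 12.45 and 12.47 (-0.61 ± 0.11), Igfals, its carrier in plasma, from 10.63, 10.55 and 10.57 to 9.56, 9.81 and 9.54 (-0.94 ± 0.12), and Socs2 as above. The growth hormone receptor Ghr was not called (-0.03 ± 0.06). In all 3 of 21 listed genes rose and 5 fell. The falls of Cish (adjusted p up to 0.144, without PBS replicate 2) and Onecut1 (up to 0.109, without PBS replicate 3) were each lost in several of the fits without 1 array, and 3 falls were left without T3 replicate 1, T3 replicate 2 or PBS replicate 3. The epidermal growth factor receptor Egfr, at 11.82, 10.90 and 12.41 with PBS and 10.16, 9.65 and 10.31 with T3, was not called (-1.67 ± 0.59, adjusted p = 0.0772 by limma). Its groups did not overlap. It was called by limma in a fit of only the WT arrays (adjusted p = 0.0224) and with the mean of its probe sets (-0.77, adjusted p = 0.037). Of 22 hepatic genes patterned by growth hormone 4 rose and 2 fell, the rises led by Mup10, and 2 rose without PBS replicate 2.

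**Figure D3:**
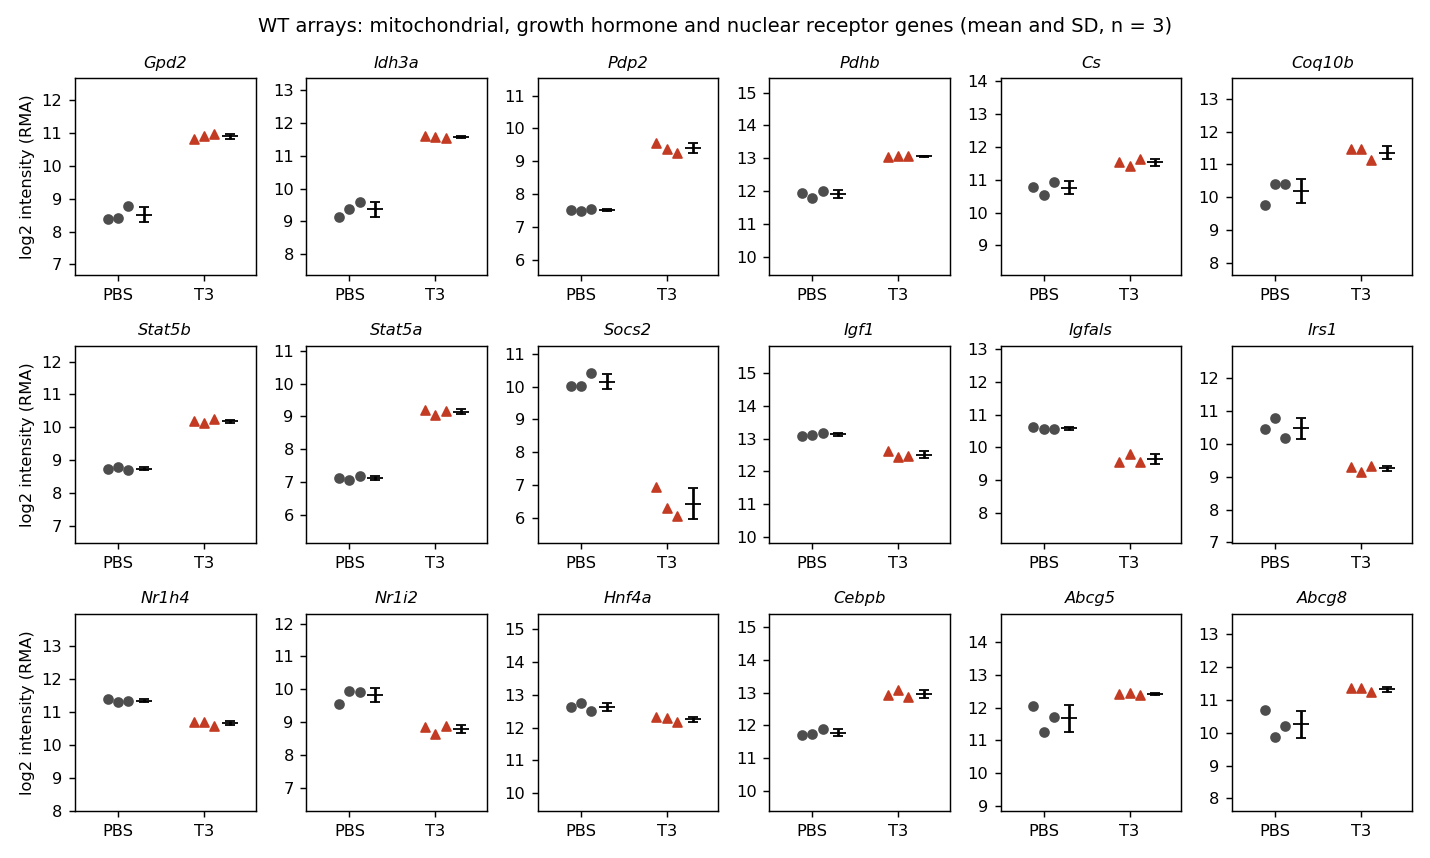
Log2 intensity (vertical axis, 6 units high in every panel and not starting at 0) in the 3 PBS arrays (dark circles) and 3 T3 arrays (red triangles) for 18 genes, with the mean and SD of each group beside the points. Mitochondrial genes and Stat5a and Stat5b lie higher with T3, Socs2, Igf1, Igfals and Irs1 lie lower, and in the lower row Nr1h4, Nr1i2 and Hnf4a lie lower while Cebpb, Abcg5 and Abcg8 lie higher.

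Insulin signalling and cell death genes were among the lists with the most calls. Irs1, the insulin receptor substrate, fell from 10.45, 10.80 and 10.18 to 9.29, 9.16 and 9.32 (-1.22 ± 0.13), while the transcription factor Foxo1 (0.41 ± 0.09) and the kinase Akt1 (0.40 ± 0.08) rose. With Bmf, Gadd45a and the BH3-only gene Bcl2l11 (1.13 ± 0.19) the list had 6 rises, and with Inhbe and the stress gene Sesn2 (-0.46 ± 0.09) 5 falls, among 31 genes. Falls numbered 3 without T3 replicate 1, T3 replicate 3 or PBS replicate 2. Of 26 genes of apoptosis and autophagy 9 rose and 5 fell, 53.8% called. Trp53inp2, which recruits proteins to autophagosomes, rose from 8.88, 9.23 and 9.37 to 11.11, 11.19 and 11.03 (1.95 ± 0.13), and Ulk1, the kinase that starts autophagy, from 9.54, 9.65 and 9.63 to 11.12, 11.02 and 11.00 (1.43 ± 0.15). Bik (0.84 ± 0.15) and Atg5 (0.38 ± 0.08) rose. Mcl1, which protects hepatocytes from apoptosis (-0.68 ± 0.10), the proapoptotic Bid (-0.59 ± 0.10) and the autophagy receptor Sqstm1 (-0.42 ± 0.07) fell, and 3 falls were left without T3 replicate 2, T3 replicate 3 or PBS replicate 2.

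Transcription factors of the hepatocyte fell more often than they rose. Of 25 tested 3 rose and 8 fell, 6 of the falls under every alternative, and the median log2 difference of -0.27 lay below the -0.03 of all genes. The xenobiotic receptor Nr1i2 (PXR) went from 9.56, 9.94 and 9.93 to 8.85, 8.65 and 8.88 (-1.02 ± 0.13) and Nr1i3 (CAR) from 11.58, 11.72 and 11.44 to 10.88, 10.82 and 10.58 (-0.82 ± 0.15). Hnf4a, which maintains hepatocyte identity, had 12.64, 12.75 and 12.51 with PBS and 12.31, 12.29 and 12.18 with T3 (-0.37 ± 0.07). Cebpb, a regulator of the acute phase and of gluconeogenesis, rose from 11.69, 11.72 and 11.90 to 12.91, 13.09 and 12.88 (1.19 ± 0.13), and the glucocorticoid receptor Nr3c1 rose by 0.72 ± 0.10. Among 16 Kruppel-like factors with 2 rises and 1 fall (18.8% called) Klf13 rose by 0.75 ± 0.12 and Klf16 fell (-0.93 ± 0.16). Klf9, a known T3 target, was called at 0.38 ± 0.12 but lost its call without any 1 of 5 arrays (adjusted p = 0.0688 without PBS replicate 1 and up to 0.162, without T3 replicate 2), and 2 fell without T3 replicate 1 or PBS replicate 3.

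In drug metabolism 23.5% of the receptors and P450 genes were called and 7.32% of the conjugation genes. Of 34 xenobiotic receptors and P450 genes 4 rose and 4 fell, and Cyp2u1, a fatty acid hydroxylase, was the rise that held in every alternative (1.49 ± 0.14). Rises numbered 2 without any array but PBS replicate 1, and falls 2 without T3 replicate 3, PBS replicate 2 or PBS replicate 3. The classical targets of these receptors, Cyp3a11 and Cyp2b10, differed by -0.05 and 0.12 and were not called. With the mean of its probe sets Cyp2b10 differed by 0.59, also not called. Of 41 genes of conjugation and flavin monooxygenases 1 rose and 2 fell, led by Fmo2. The rise was lost without T3 replicate 1 or PBS replicate 2, and 1 fall was left without T3 replicate 1, T3 replicate 3, PBS replicate 1 or PBS replicate 3. Among 32 membrane transporters there were 8 rises and 3 falls. After Slc22a7 came the ascorbate carriers Slc23a1 (1.44 ± 0.16) and Slc23a2 (0.96 ± 0.14), the betaine transporter Slc6a12 (1.23 ± 0.09), the amino acid transporter subunit Slc3a1 (1.23 ± 0.23) and the amino acid carrier Slc38a2 (1.06 ± 0.16), while the glycerol channel Aqp9 fell (-0.44 ± 0.07). In amino acid metabolism 3 of 40 genes rose and 2 fell, 12.5% called against 10.6% of all genes. Prodh, which degrades proline, rose by 1.54 ± 0.13, Gch1, the first enzyme of tetrahydrobiopterin synthesis, by 1.31 ± 0.09 and Shmt1, of serine and folate metabolism, by 0.80 ± 0.13. Nags, which makes the activator of the urea cycle (-0.65 ± 0.08), and the cysteine-forming Cth (-0.41 ± 0.07) fell.

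**Figure D4:**
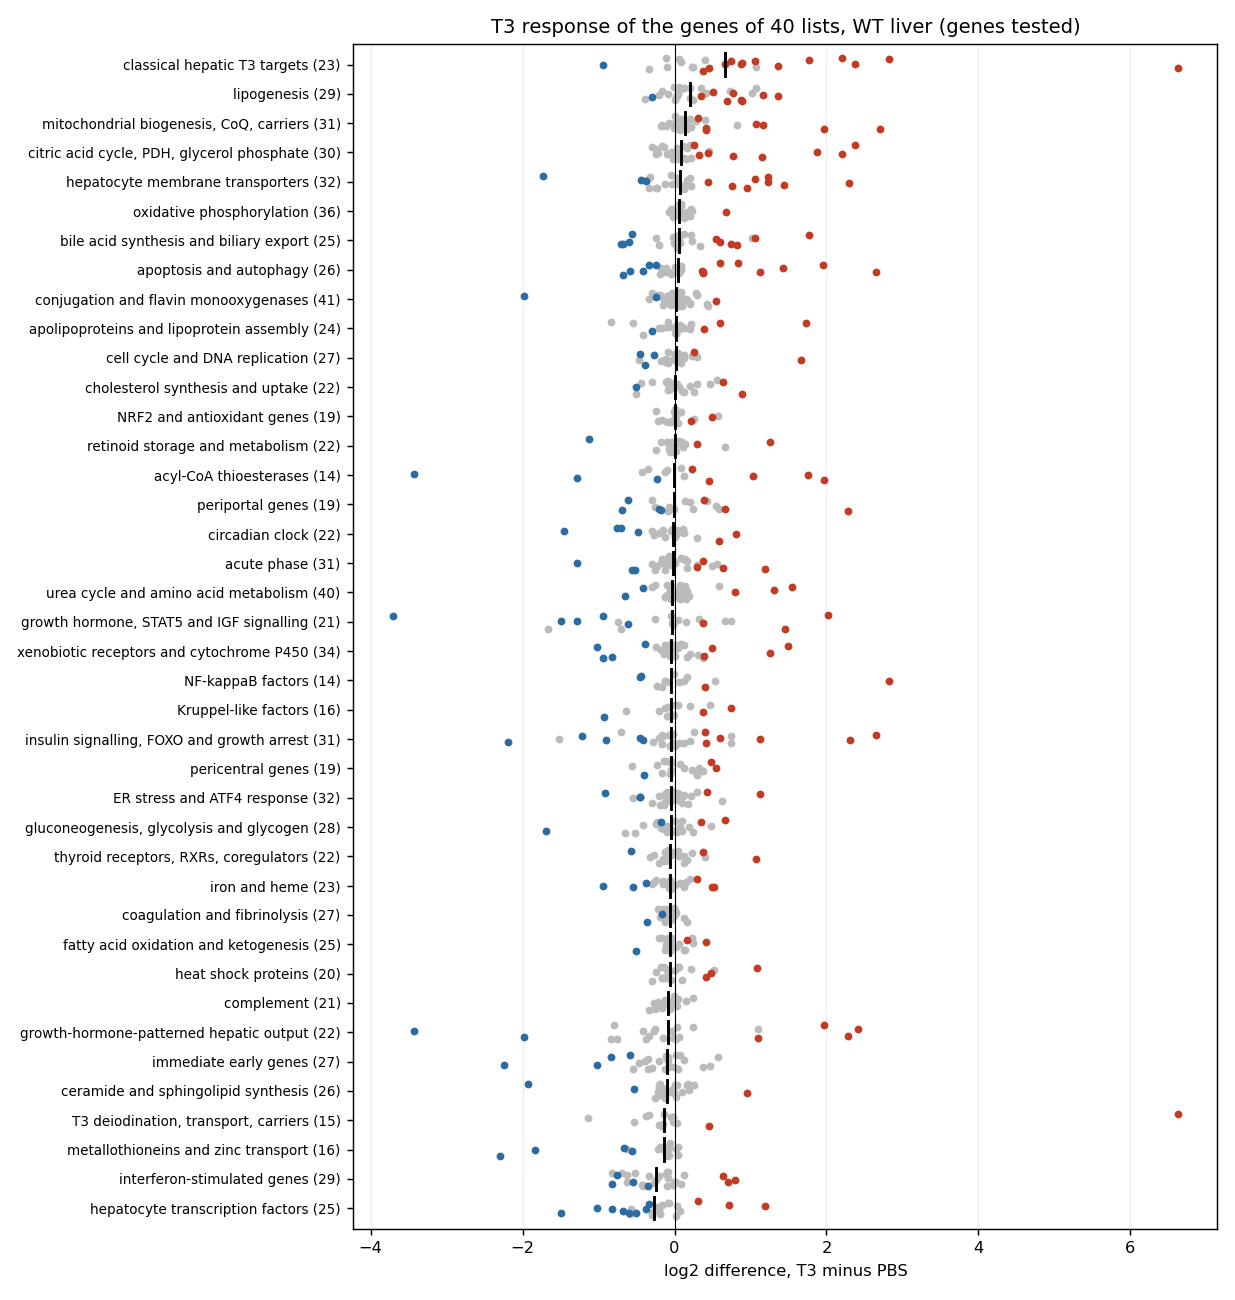
Log2 difference, T3 minus PBS (horizontal axis), for the tested genes of 40 pathway lists, ordered by their median (black bar). Red points were called higher, blue points lower and grey points not called, and the number of genes tested stands in brackets. The classical T3 targets have the highest median, 0.66, and the hepatocyte transcription factors the lowest, -0.27.

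Metal, clock and early response genes fell in part. Of 16 metallothionein and zinc transport genes none rose and 4 fell, among them Slc39a14, a zinc and iron importer (-0.67 ± 0.13), and 1 fell without T3 replicate 1. Of 22 clock genes 2 rose and 4 fell, 27.3% called. The repressor Nfil3 went from 8.21, 8.55 and 8.15 to 6.90, 6.91 and 6.74 (-1.45 ± 0.20) and Cry2 fell (-0.70 ± 0.14), both kept in every alternative. Both rises were lost without PBS replicate 1 and 1 was left without T3 replicate 1, T3 replicate 2 or PBS replicate 3, and falls numbered 2 without T3 replicate 3. The core activators Clock and Arntl were not called, with differences of -0.01 and -0.04. Of 27 immediate early genes none rose and 4 fell, 14.8% called against 10.6% of all genes. The falls included Btg2, an antiproliferative gene (-1.02 ± 0.20), and the cAMP response modulator Crem (-0.83 ± 0.17), while Fos and Egr1 were not called (0.37 and 0.02).

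Immune and secreted programmes changed in a few genes. Of 14 NF-κB genes 2 rose and 2 fell, 28.6% called against 10.6% of all genes. Bcl3 led the rises, and the inhibitor Tnfaip3 fell (-0.44 ± 0.10). Bcl3 was the single rise without T3 replicate 1, T3 replicate 2, PBS replicate 2 or PBS replicate 3, and 1 fall was left without T3 replicate 2. Of 31 acute phase genes 4 rose and 3 fell, 22.6% called. The C-reactive protein gene Crp fell from 13.25, 13.07 and 12.89 to 12.45, 12.58 and 12.53 (-0.56 ± 0.09) and the chemokine Cxcl1 from 8.83, 9.27 and 8.88 to 7.84, 7.71 and 7.56 (-1.29 ± 0.21), and Cebpb was the rise left in every alternative, alone without T3 replicate 2 and with 1 other without PBS replicate 3. Interferon-stimulated genes had 3 rises and 4 falls among 29 (24.1% called) and a median of -0.24. Irf1 (0.70 ± 0.12), Ifih1 (0.64 ± 0.11) and Gbp3 (0.80 ± 0.17) rose and Iigp1 (-0.55 ± 0.09) fell, and falls numbered 1 without T3 replicate 3 and 2 without T3 replicate 1 or PBS replicate 3. No complement gene of 21 was called, with differences from -0.34 to 0.24. Of 27 coagulation genes 2 fell, 7.41% called. Serpina10 (-0.36 ± 0.06) fell in every alternative, and alone without T3 replicate 1, T3 replicate 2, PBS replicate 1 or PBS replicate 2.

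In cell cycle and replication Rrm2, the ribonucleotide reductase subunit, rose from 7.24, 7.67 and 7.91 to 9.05, 9.41 and 9.37 (1.67 ± 0.23) and Cdk4 fell (-0.39 ± 0.08), in a list with 2 rises and 3 falls among 27, whereas the proliferation genes Top2a (0.12) and Cdk1 (0.06) were not called. Of that list 18.5% was called, against 10.6% of all genes. It held 1 rise without T3 replicate 2, T3 replicate 3, PBS replicate 1 or PBS replicate 2, and 1 fall without T3 replicate 2, T3 replicate 3 or PBS replicate 2. Of 26 sphingolipid genes 11.5% were called, against 10.6% of all genes. The ceramidase Acer3 rose by 0.95 ± 0.10, and the glucosylceramide synthase Ugcg (-0.53 ± 0.12) fell with Cers6. The list of endoplasmic reticulum stress had 2 rises and 3 falls among 32 genes, 15.6% called. In it Chac1, which degrades glutathione, rose by 1.12 ± 0.25, and Xbp1 (-0.45 ± 0.10) and Nupr1 (-0.92 ± 0.19) fell. Chac1 was the single rise there without T3 replicate 2 or PBS replicate 2. The chaperone Dnaja1 rose by 1.09 ± 0.12 among 20 heat shock genes, of which 3 rose and, without PBS replicate 1, 1. Of 28 genes of glucose and glycogen metabolism 2 rose and 2 fell, 14.3% called. Ppp1r3c was the change that held in every alternative, and 1 rise and 1 fall were left in most fits without 1 array. In 19 pericentral and 19 periportal genes 15.8% and 36.8% were called, the latter both ways. Antioxidant (10.5% called), retinoid (13.6%) and iron and heme genes (26.1%) had no rise that held in every alternative. Of 3 falls among iron and heme genes 2 held in every alternative, and the 1 retinoid fall did not.

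Markers of liver cell types were read to see whether cell composition differed with T3. Summed as a mean log2 level over 9 hepatocyte markers, PBS arrays lay between 14.13 and 14.22 and T3 arrays between 14.07 and 14.14, and Hnf4a was the marker called. None of 13 Kupffer cell, 12 sinusoidal endothelium, 12 stellate cell, 6 cholangiocyte or 6 leukocyte markers was called, apart from 1 leukocyte marker lower without PBS replicate 1. The endothelial mean lay between 9.20 and 9.24 with PBS and 8.95 and 9.06 with T3, without overlap, with a median log2 difference of -0.20 over its markers. Lyve1 among them differed most, by -0.75 ± 0.34. Cholangiocyte markers also lay lower with T3, at 6.61 to 6.71 against 6.82 to 6.97, and Kupffer markers overlapped at 8.74 to 9.04 against 8.98 to 9.06. The part of these shifts in other results was not tested. Of 4 pancreas genes the elastase Cela2a rose, from 5.36, 5.24 and 5.34 to 6.86, 6.34 and 6.78 (1.35 ± 0.15), and the acinar gene Prss2 was not called (0.06). The PBS values of Cela2a lay below the 40th percentile of their arrays, which was 5.42 to 5.45, so its difference is not an exact size.

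Probe sets that the fit did not use gave a second reading of many genes. Counted were other probe sets that reached the 40th percentile of their array in at least 3 arrays. They read the same RNA on the same arrays. For 436 genes that rose there were 754, and 89.0% of them had a positive difference. For 350 genes that fell it was 608 probe sets, 94.1% with a negative difference. Among genes not called 71.4% of such probe sets shared the sign. Several large changes were read more than once: Gpd2 at 2.60 and 2.29 besides 2.38, Stat5a at 2.20, Gpcpd1 at 1.61 to 2.45, and Socs2 at -4.05 on one probe set and -0.24 on a dim one (mean level 5.81). Bmf (0.99 and 0.05) and Idh3a (1.95, 1.55 and 0.25) had probe sets that moved less.

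Called genes lay next to each other more often than other genes did. Ordered along the chromosomes of GRCm38.p6, 24.5% of the genes that rose had an immediate neighbour among tested genes that also rose, while 11.0% of all 14082 genes placed had such a neighbour. For falls the shares were 19.2% and 9.53%. These shares are descriptions, with no test, and they include paralogs and pairs on one promoter region. Frmd8 and Slc25a45 run away from each other with their starts 2614 bases apart. Other adjacent pairs were Stat5b and Stat5a (1.45 and 2.02), Abcg5 and Abcg8 (0.75 and 1.06), Mt2 and Mt1 (-2.30 and -1.84), Acot4 and Acot3 (-1.29 and -3.43), and Tedc2 and Ccnf (-1.71 and -1.59).

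The same genes were then read in the other genotypes. In KO and GS, whose arrays are separate from those of WT, the genes that rose in WT had median log2 differences of 0.10 and 0.09, and the genes that fell had -0.09 and -0.06. Their medians in WT were 0.49 and -0.45, which the choice of these genes by WT values sets in part. Of the 811 rises, 611 had a positive difference in KO (75.3%) and 617 in GS (76.1%), where 46.6% and 51.7% of all genes were positive. Of the 694 falls 75.1% and 69.0% were negative. A call in the same direction was made for 14 of the rises and 2 of the falls in KO, where 18 genes (0.127%) were called higher and 7 (0.0494%) lower in all. In GS it was made for 14 and 1, where 19 genes (0.134%) were called higher and 2 (0.0141%) lower in all. In Y147F, 797 of the rises (98.3%) and 666 of the falls (96.0%) kept their sign, with medians of 0.39 and -0.37, and 551 and 404 were called, against 5.52% of all genes called higher and 6.09% called lower in that genotype.

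**Figure D5:**
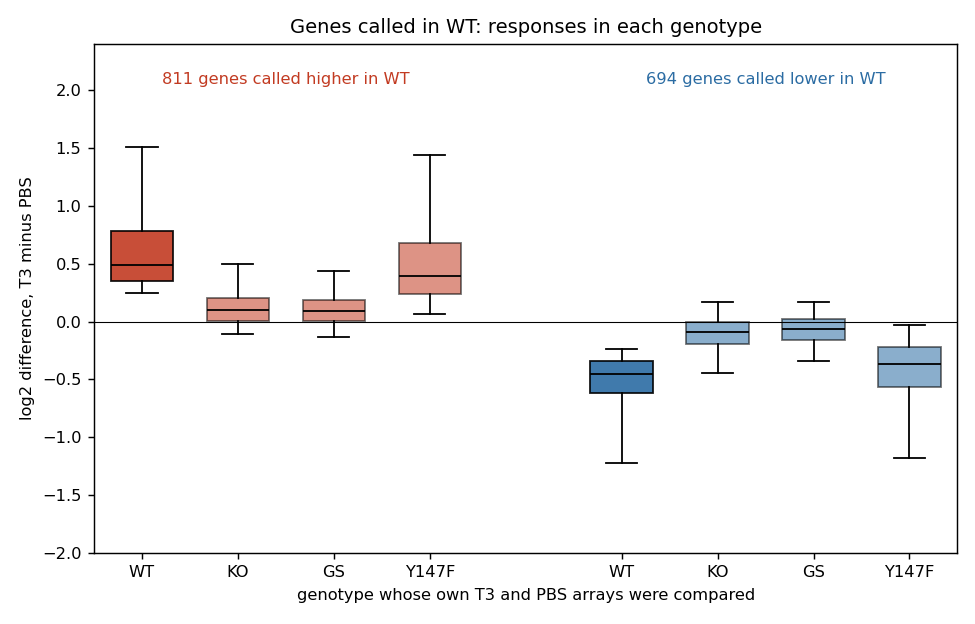
Log2 difference, T3 minus PBS (vertical axis), in WT, KO, GS and Y147F for the 811 genes called higher (red) and the 694 called lower (blue) in WT. Boxes span the middle 50% of genes with the median as a line, and whiskers leave out 5% of genes at each end. Boxes of KO and GS sit near 0, with medians of -0.09 to 0.10, and those of Y147F lie close to WT.

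The difference between responses was tested gene by gene. It was called for 437 genes in KO against WT (3.09% of those tested), for 414 in GS against WT (2.92%) and for 0 in Y147F against WT (0.0%) by limma, where 756 genes had an unadjusted p under 0.05. These tests share the WT arrays with the calls above, and the genes named here were chosen for their size in WT, which favours a difference. Among the 5 largest rises and 5 largest falls named above, Dio1 rose by 1.82 ± 0.28 in KO and 2.52 ± 0.28 in GS, in both less than in WT (difference of responses -4.80 and -4.11, limma adjusted p = 8.24e-07 and 2.53e-06). Frmd8 differed by 0.37 in KO and 0.18 in GS, Bcl3 by 0.14 and 0.07 and Bmf by 0.22 and 0.11, none of them called, and each response was smaller than in WT by the test of the difference (adjusted p of 0.000213 or less, limma). Slc25a45 kept a rise of 1.02 ± 0.13 in KO. Socs2 (-0.63 and -0.29), Acot3 (0.73 and -0.88) and Nipal1 (0.30 and -0.67) were not called in KO or GS. Each differed from WT by limma, but the difference in GS was lost for Acot3 without any of 11 of the 12 arrays concerned (adjusted p up to 0.0886) and for Nipal1 without any of 4 (up to 0.0631). Mt2 differed from WT in KO (adjusted p = 0.0306 by limma) and Nr4a1 in GS (0.0229), but the call was lost for Mt2 in 8 alternatives, 6 of them fits without 1 array (up to 0.0965, without WT T3 replicate 1), and for Nr4a1 in 5, 4 of them such fits (up to 0.0757, without GS T3 replicate 2). In Y147F Dio1 rose by 7.52 ± 0.28, Bcl3 by 3.24 ± 0.17 and Stat5a by 2.11 ± 0.09, and Socs2 fell by 2.89 on the log2 scale.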

How the data were processed

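Liver RNA was hybridised to 24 Affymetrix arrays of 45101 probe sets. The authors deposited RMA log2 values, per the submitters' processing notes, with no version named. Their decimal mark was missing from the 6 deposited Y147F columns and was restored from the digits, and 775 cells (0.286%) stayed missing. The values were analysed on the log2 scale in limma 3.58.1 (R 4.3.3), with 8 group means over 24 arrays, which share 1 estimate of spread. The authors' values give no depth, and the number of arrays limits the precision. Nothing in the labels shows how the mice were housed or processed together, and the p-values take the arrays as independent. Each p-value and SE rests on the spread within all 8 groups, Y147F included, and not on the 6 WT arrays alone.

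Each gene was read from its brightest probe set with a single symbol, and genes entered the test where at least 3 arrays had them at or above the array's 40th percentile. The text names the 20 largest called rises and falls without overlap between groups, and genes of the lists. List members named beyond those, and all lists, were chosen with earlier results of these data known. On simulated data for the T3 response in WT, over 14162 genes, 100 genes were changed 1.5-fold and 100 were changed 2-fold. The fit found 85% and 96% of them, with 6 false calls. The noise was normal and independent between genes, with no array effects and no smaller changes. These shares are therefore not the power of the real comparison. Alternatives changed normalisation, filter, probe set choice, variance model, samples, weights and a term for title numbers. That term set apart title numbers over 100000, which among the WT arrays is PBS replicate 1 alone.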

Additional observations from a re-analysis of the deposited data

Results flagged for a closer look

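The T3 response differed from that of WT in 437 genes in KO and in 414 genes in GS, each by a test of the difference itself (limma, adjusted over all 14162 genes tested). Both tests share the WT arrays, and the genes below are from the 5 largest rises and 5 largest falls in WT, a choice by WT values that itself favours a difference. As a difference of log2 responses, KO minus WT, Dio1 stood at -4.80 (adjusted p = 8.24e-07 by limma), Frmd8 at -2.84 (1.19e-06), Bcl3 at -2.67 (1.2e-06), Slc25a45 at -1.68 (7.98e-06) and Bmf at -2.43 (0.000213). The genes that fell in WT had positive differences, with Socs2 at 3.08 (0.0039), Acot3 at 4.16 (0.000514), Nipal1 at 3.27 (0.00103) and Mt2 at 3.04 (0.0306). The call of Mt2 was lost in 8 alternatives (up to 0.0965). The values of Dio1 rest on PBS levels near background and are not exact sizes. For GS minus WT the values were -4.11 for Dio1 (2.53e-06), -3.03 for Frmd8 (7.49e-07), -2.75 for Bcl3 (8.74e-07), -2.09 for Slc25a45 (8.46e-07) and -2.54 for Bmf (0.000126). Socs2 stood at 3.42 (0.00148), Acot3 at 2.55 (0.0327), Nipal1 at 2.31 (0.0197) and Nr4a1 at 2.56 (0.0229). In GS the call was lost in 12 alternatives for Acot3 (up to 0.0886), and in 5 each for Nipal1 (up to 0.073) and Nr4a1 (up to 0.0757).

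Probe sets without a single gene symbol entered no comparison above. Tested in the same way, 126 of 4118 were called (3.06%), 71 higher and 55 lower with T3.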

How the results depend on the processing

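Of the 1505 genes called in WT, 708 (47.0%) kept their call under each of the 15 alternatives, 442 higher and 266 lower, and no called gene reversed its direction in any of them. The count of calls lay between 1075 and 1305 in the 6 fits without 1 WT array and between 1277 (only the arrays compared) and 1870 (array weights) otherwise. Falls numbered 435 to 575 without 1 array (435 without T3 replicate 2) and rises 640 to 758. With the term for title numbers 603 genes fell and 830 rose. For KO minus WT, positive differences numbered 146, and 93 to 126 without 1 array. For GS minus WT they numbered 137, with 212 under array weights and 77 to 121 without 1 array. For Y147F minus WT no difference was called, and 0 to 1 without 1 array (1 without WT T3 replicate 3). Of 2382 values of named genes under alternatives 30 lost a call, 5 gained one and 24 changed sign. The sign changes were all of genes not called, whose differences in the main fit lay between -0.134 and 0.125. Cyp2b10, at 0.125 there, differed by 0.589 with the mean of probe sets and was not called. Without 1 array the log2 difference ranged from -0.229 to 0.007 for Thrb, -0.099 to 0.302 for Acaca, -0.015 to 0.080 for Scd1, -0.077 to 0.234 for Nr0b2, -0.074 to 0.027 for Idh3g, -0.063 to 0.019 for Ghr, -0.161 to 0.071 for Cyp3a11, -0.022 to 0.287 for Cyp2b10, -0.056 to 0.047 for Clock, -0.086 to 0.007 for Arntl, -0.176 to 0.242 for Egr1 and -0.017 to 0.099 for Cdk1. Array weights gave 0.013 for Clock and -0.095 for Egr1, and a term for title numbers gave 0.051 for Cyp3a11. The cause of these changes was not tested. No paired analysis was possible because the labels give the arrays no shared replicate numbers. The share of genes called was lowest among dim genes, and recovery in simulated data was not split by level.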
